A study of Mus musculus with 2084 samples.

Results

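Naive striatal astrocytes that lack interferon receptors (genotype IFN(A/G)R KO, here KO) were set against naive striatal astrocytes of TiCY mice. They were chosen by their labels: 35 KO cells, all of the biological replicate lettered pJ, and 131 TiCY cells, all of the replicate lettered pM. Together they are 166 of 2084 labelled cells in a study that measured RNA in single cells sorted from the adult mouse striatum, ventricular-subventricular zone (vSVZ) and olfactory bulb by Smart-seq3, as the RNA side of an assay that also reads DNA methylation and chromatin accessibility. A letter stands for 1 or more mice, pooled on some plates. Neither group had an induced ischemia. TiCY mice carry a tamoxifen-dependent Cre that acts in cells expressing the nuclear receptor Tlx (Nr2e1) and then switches on YFP, and the treatment notes describe tamoxifen at 2 months of age for TiCY mice; the labels do not say whether naive TiCY or KO mice got it, which other alleles the naive KO mice carried, what part of each receptor gene was removed, or the age at sacrifice. The striatal astrocytes were sorted with an antibody to GLAST, the glutamate transporter Slc1a3. For context, levels are also given for 33 naive striatal astrocytes of WT mice with a TCF-Lef reporter (letter pL, from cortex and striatum, with no tamoxifen per the treatment notes) and for 82 striatal astrocytes of TiCY-IFN(A/G)R KO mice taken 2 d after ischemia (also pJ).

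Type I interferons signal through a receptor made of Ifnar1 and Ifnar2, and interferon gamma through a receptor made of Ifngr1 and Ifngr2. The type I receptor uses the kinases Jak1 and Tyk2 and the gamma receptor Jak1 and Jak2 to activate Stat proteins, which drive interferon-stimulated genes through short DNA elements in their promoters and raise antigen presentation by MHC class I. Even without infection, a low tonic signal keeps some of these genes on. Astrocytes take up glutamate and potassium, link to each other through gap junctions and make cholesterol and lipoproteins for neurons.

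Each genotype is 1 letter, so there is no spread between replicates and no test was made. Genotype, mouse, plate and sequencing cannot be told apart in any difference below. The cells of each letter were added up gene by gene, and the sums were scaled to CPM by the counts of all genes, and square brackets hold exact 95% Poisson intervals, which cover counting error only. Ratios are log2 of the KO level over the TiCY level after 5 CPM was added to each, so they understate the change of low genes. A gene entered at 20 CPM or more in either sum and was called past a log2 ratio of 1 or -1. Shares of cells with at least 1 count are descriptions, since cells of 1 letter are not replicates, and a sum does not part fewer cells with a transcript from less of it per cell.

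Depth was alike in both letters, but the number of genes seen was not. KO cells held 8803 to 229948 counts (median 137876), against 7253 to 231648 (median 142356) in TiCY cells. They showed a median of 3916 genes in KO cells, against 5238 in TiCY cells. With every cell thinned to 50000 counts, which left 29 KO and 106 TiCY cells, the medians were 3400 genes in KO cells and 4736.5 in TiCY cells; the part of this gap in the results was not tested. In the main count matrix, 77 rows are named as naive striatal GLAST cells of pJ and 42 of them carry no label and were not used, while all 131 such rows of pM are labelled; of 66 rows named as striatal GLAST cells of pL, 33 carry no label and were not used.

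The astrocyte label held in both groups. All 24 astrocyte marker genes entered in the sums. Past the fold, 1 was higher in KO (4.17%, against 9.90% of all genes) and none was lower. Their summed level per cell ran from 45463 to 109162 CPM in KO cells (median 76447) and from 42685 to 125715 CPM in TiCY cells (median 75872), so the groups overlapped throughout. Slc1a2, the main glutamate transporter of astrocytes, stood at 19685 CPM in KO cells and 22954 CPM in TiCY cells, and Aqp4, the water channel of the endfeet, at 849 CPM in KO and 829 CPM in TiCY cells. The marker past the fold was Gpr37l1, an orphan receptor of astrocytes, at 1763 CPM [1724 to 1803] in KO and 785 CPM [771 to 798] in TiCY cells (log2 ratio 1.16). Gja1, the gap junction protein connexin 43, lay within the fold at 1136 CPM in KO and 2176 CPM in TiCY cells (-0.93). None of the 7 sex-linked genes that entered was past the fold.

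Of 8593 genes that entered, 851 were higher in KO than in TiCY cells (9.90%) and 1014 were lower (11.8%), with a median log2 ratio of -0.01. Letters without a knockout differed almost as widely: with pL set against pM in the same cell type, 8.81% of 8505 genes were higher and 9.31% lower. The counts lean on single cells. With the cell that held most counts of each gene left out in each letter, 282 genes were higher in KO and 1675 lower, since a single cell weighs more among 35 than among 131. At least 25% of cells with a count and no cell holding over 20% of the counts, both in the higher letter, were met by 99 of the genes higher in KO and by 804 of the genes lower in KO. The first count is judged among 35 cells and the second among 131, so the 2 cannot be compared directly.

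**Figure D1:**
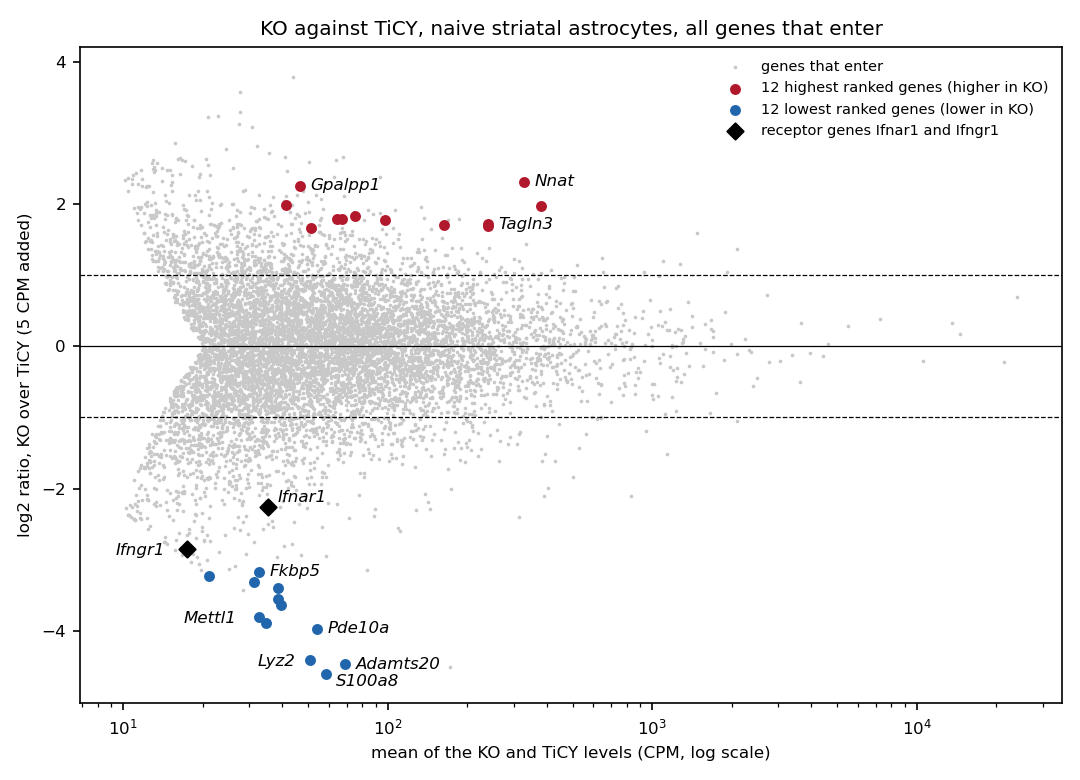
Log2 ratio of KO over TiCY (5 CPM added to each) against the mean of the KO and TiCY levels (CPM, log axis) for the 8593 genes that entered, 1 point per gene; dashed lines mark ratios of 1 and -1. The 12 highest ranked genes (red) lie between 1.67 and 2.32 and the 12 lowest (blue) between -4.60 and -3.17, and both receptor genes (black diamonds) lie below the lower line.

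The receptor genes named in the genotype were the check of the labels, and both were low in KO cells. Ifngr1 (ENSMUSG00000020009, GRCm38 chr10:19591949-19610229, plus strand), the ligand-binding chain of the interferon gamma receptor, had 2 counts in KO cells, 1 in each of 2 cells, against 551 counts in TiCY cells. That is 0.457 CPM [0.0553 to 1.65] in KO and 34.2 CPM [31.4 to 37.2] in TiCY cells, a KO to TiCY ratio of 0.0133 [0.00161 to 0.0484]. It was seen in 5.71% of KO cells [0.70% to 19.2%, exact binomial] and in 36.6% of TiCY cells [28.4% to 45.5%]. In pL it stood at 49.1 CPM, and in KO cells 2 d after ischemia at 2.93 CPM.

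Ifnar1 (ENSMUSG00000022967, GRCm38 chr16:91485238-91507441, plus strand), a chain of the type I receptor, stood at 8.90 CPM [6.33 to 12.2] in KO and 61.3 CPM [57.6 to 65.3] in TiCY cells, a log2 ratio of -2.25. The lowest, median and highest values per cell were 0, 0 and 194 CPM in KO cells, and 0, 0 and 920 CPM in TiCY cells, so the groups overlap. Of the 39 KO counts, 87.2% came from 1 cell. Counts per gene do not part exons, so transcripts that lack a removed exon would still be counted. Ifnar1 stood at 42.8 CPM in pL and at 12.7 CPM in KO cells 2 d after ischemia. The same letters gave 9.22 CPM in KO and 46.8 CPM in TiCY vSVZ astrocytes, and 8.74 CPM in KO and 61.3 CPM in TiCY cells labelled qNSC2.

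The partner chains differed less. Ifngr2, which recruits Jak2, stood at 10.3 CPM [7.49 to 13.7] in KO and 34.7 CPM [31.9 to 37.7] in TiCY cells (-1.38), but at 10.6 CPM in pL, a letter with no knockout. Ifnar2, the main ligand-binding chain of the type I receptor, stood at 15.1 CPM in KO and 25.7 CPM in TiCY cells (-0.61) and was seen in 17.1% of KO and 32.1% of TiCY cells; it overlaps Gm21970 on its strand, as does Il10rb, so reads may have gone either way. Il10rb, a chain shared by the interleukin 10 and interferon lambda receptors, was at 4.57 CPM in KO and 4.16 CPM in TiCY cells. Ifnlr1, the other lambda chain, had no count in 35 KO cells, which allows up to 0.685 CPM at 3 counts, and 6.21 CPM in TiCY cells, 64.0% of it from 1 cell.

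Of the 14 receptor and signalling genes, 9 entered, 3 were lower in KO (33.3%, against 11.8% of all genes) and none was higher; the 3 were Ifngr2 and the genes of the genotype, Ifngr1 and Ifnar1, and the median log2 ratio of the 9 was -0.78, against -0.01 over all genes. Jak1, the kinase both receptors share, was the best covered: 98.4 CPM [89.3 to 108] in KO and 173 CPM [167 to 180] in TiCY cells (-0.78), with medians per cell of 51.6 CPM in KO and 115 CPM in TiCY cells. Jak2 stood at 23.7 CPM in KO and 48.6 CPM in TiCY cells (-0.90), while Tyk2, the kinase of Ifnar1, stood at 44.3 CPM in KO and 23.6 CPM in TiCY cells (0.78). Stat3, a transducer of many cytokines, was at 70.3 CPM in KO and 90.3 CPM in TiCY cells (-0.34), and the phosphatase Ptpn2, which turns off Stat signalling, at 49.1 CPM in KO and 60.0 CPM in TiCY cells (-0.27). The others were barely counted: Stat6 had no count in KO and 1 in TiCY cells, and the feedback inhibitors Socs1 and Socs3 had 34 and 7 counts in KO and 5 and 0 in TiCY cells.

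Genes beside the receptor genes can share a donor strain's chromosome segment, so those starting within 5 Mb were counted. Around Ifnar1, 42 other genes entered, 2 were higher and 4 lower in KO, with a median of -0.08. Around Ifngr1, 15 others entered, 1 was higher and 3 lower, with a median of -0.45. Over all genes 9.90% were higher and 11.8% lower, so the shares around Ifnar1 were no higher than over all genes. Around Ifngr1 the share higher was below that over all genes and the share lower was above it. The median there, -0.45, lay below the -0.01 over all genes. With 15 genes this was not tested. Near Ifnar1 the lower ones were Ifngr2, Dnajc28 (7.99 CPM in KO and 35.5 CPM in TiCY cells, 8.18 CPM in pL), Smim11 (10.04 in KO and 31.6 in TiCY cells, 16.2 in pL) and the predicted gene Gm49708 (5.94 in KO and 52.4 in TiCY cells, 45.7 in pL). Near Ifngr1, Pex7, a peroxisomal import receptor, stood at 12.8 CPM in KO and 31.0 CPM in TiCY cells (49.1 in pL), and Eya4 at 4.11 CPM in KO and 48.4 CPM in TiCY cells (16.5 in pL). These neighbours were named after their values were seen. The higher ones were the Riken genes 4932438H23Rik and 2810407A14Rik near Ifnar1 and the glucose transporter Slc2a12 near Ifngr1 (24.4 CPM in KO and 5.59 CPM in TiCY cells), and the remaining lower one was Gm8355 near Ifngr1.

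Interferon-stimulated genes gave called members on both sides. Of 64 on the list, 55 had a count in either sum and 15 entered; 4 were higher in KO (26.7%, against 9.90% of all genes), 2 were lower (13.3%, against 11.8%), and the median was -0.15. Summed over the list they made 727 CPM [702 to 753] in KO and 814 CPM [800 to 828] in TiCY cells, with 1004 CPM in pL. The summed level was lower in KO, and the intervals, which cover counting error only, lay apart. The gap between pL and TiCY, letters without a knockout, was wider than that between KO and TiCY. The tally turned with the settings: 5 were higher and 11 lower with no floor, and 2 higher and 4 lower without the top cell of each gene. With pL as the reference 4 were higher and 5 lower. Of the called members, 1 of the 4 higher and both lower ones met the cell conditions. In vSVZ astrocytes the sums were 786 CPM in KO and 908 CPM in TiCY cells.

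Ifi27, a mitochondrial interferon-stimulated protein and the highest member, stood at 224 CPM [211 to 239] in KO and 249 CPM [241 to 257] in TiCY cells (-0.15); cells ran from 0 to 1026 CPM in KO (median 126) and from 0 to 1134 CPM in TiCY cells (median 167). Stat2, which is part of the transcription factor complex downstream of Ifnar1, was higher in KO: 91.5 CPM [82.8 to 101] in KO and 31.2 CPM [28.5 to 34.0] in TiCY cells (1.42). It had a count in 62.9% of KO cells [44.9% to 78.5%] and 29.8% of TiCY cells [22.1% to 38.4%], its median per cell was 28.4 CPM in KO and 0 CPM in TiCY cells, and its ratio stayed past the fold in all 10 alternatives (1.08 to 1.76). It stood at 52.1 CPM in pL.

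Irf1, a transcription factor induced by interferon gamma, stood at 30.1 CPM in KO and 4.78 CPM in TiCY cells (1.84), in 6 KO and 11 TiCY cells. Trim25, a ubiquitin ligase of RIG-I signalling, stood at 28.1 CPM in KO and 5.78 CPM in TiCY cells (1.62), with 48.0% of its KO counts in 1 cell. Rsad2, the antiviral enzyme viperin, owed 97.4% of its 26.5 CPM in KO to 1 cell, against 2.17 CPM in TiCY cells, and without that cell its ratio turned to -0.16. On the lower side were Herc6, the mouse ligase that attaches Isg15, at 7.53 CPM in KO and 42.9 CPM in TiCY cells (-1.93), and Adar, the RNA editing enzyme, at 5.48 CPM in KO and 25.7 CPM in TiCY cells (-1.55).

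The members within the fold went both ways. Eif2ak2, the kinase PKR, stood at 47.3 CPM in KO and 67.9 CPM in TiCY cells (-0.48), and the guanylate-binding protein Gbp7 at 48.4 CPM in KO and 58.0 CPM in TiCY cells (-0.24). Samhd1, which degrades deoxynucleotides, stood at 23.7 CPM in KO and 47.0 CPM in TiCY cells (-0.86), and Cmpk2, a mitochondrial nucleotide kinase, at 13.01 CPM in KO and 30.6 CPM in TiCY cells (-0.98). Trim30a was at 39.5 CPM in KO and 27.5 CPM in TiCY cells (0.45) and Lgals3bp at 24.4 CPM in KO and 18.02 CPM in TiCY cells (0.35). Ifit3b was at 14.2 CPM in KO and 20.3 CPM in TiCY cells (-0.40).

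Some promoters of these genes hold the elements through which the receptors act. In RefSeq promoters of GRCm38.p6, 250 bases before to 50 after a gene's start, the interferon-stimulated response element (TTTC, any 2 bases, then TTTC, on either strand) was found in 25 of the 47 listed genes with a promoter (53.2%), against 3.99% of 27025 genes. A gamma-activated site (TTCNNNGAA, either strand), at which activated Stat dimers bind, was found in 13 of 47 (27.7%), against 9.55% of all. A match is a description of letters and not a bound site. The windows below show the element, in capitals, with 20 bases on each side, for 4 interferon-stimulated genes that stayed counted without receptors and for B2m, 5′ to 3′ on the gene's strand.
Stat2 (chr10:128270256-128270305, plus): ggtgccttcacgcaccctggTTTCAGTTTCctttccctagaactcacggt
Gbp7 (chr3:142530263-142530312, plus): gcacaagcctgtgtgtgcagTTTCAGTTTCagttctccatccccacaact
Rsad2 (chr12:26456543-26456592, minus): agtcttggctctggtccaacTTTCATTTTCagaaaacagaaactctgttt
Eif2ak2 (chr17:78882525-78882574, minus): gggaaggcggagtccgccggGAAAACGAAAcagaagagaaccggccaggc
B2m (chr2:122147528-122147577, plus): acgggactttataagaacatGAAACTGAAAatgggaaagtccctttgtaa
In Eif2ak2 and B2m the element reads on the opposite strand. Stat2 and Gbp7 hold the same 10 letters, and Stat2 was past the fold while Gbp7 was not. Of the 13 listed genes that entered and had a promoter, 4 were higher in KO and 2 were lower. Over all genes, 9.90% were higher and 11.8% lower. The interferon-stimulated response element was held by 6 of the 13 (Ifit3b, Rsad2, Stat2, Trim30a, Gbp7 and Eif2ak2). Of these 6, 2 were higher in KO and none was lower, with a median log2 ratio of 0.11. Rsad2, 1 of the 2, turns without 1 cell. Whether the ratio goes with the element was not tested. The gamma-activated site was held by 5 (Irf1, Gbp7, Samhd1, Eif2ak2 and Adar), of which 1 was higher and 1 lower in KO, with a median of -0.48.

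Genes of MHC class I antigen presentation went both ways. Of 23 listed 10 entered, 1 was lower (10%, against 11.8% of all genes), none was higher, and the median was -0.01. The list summed to 1056 CPM [1025 to 1087] in KO and 1262 CPM [1245 to 1280] in TiCY cells. B2m, the light chain of every class I molecule, stood at 75.3 CPM [67.4 to 83.9] in KO and 37.1 CPM [34.2 to 40.2] in TiCY cells (0.93), in 14 of 35 KO and 59 of 131 TiCY cells. The heavy chain genes H2-K1 and H2-D1, which resemble each other and may trade reads, stood at 23.5 and 18.7 CPM in KO and 31.4 and 27.9 CPM in TiCY cells. The immunoproteasome subunit Psmb10 was at 98.9 CPM in KO and 50.6 CPM in TiCY cells (0.90), the peptide loader Tapbp at 84.9 CPM in KO and 73.4 CPM in TiCY cells (0.20), and the peptide transporter Tap2 at 34.5 CPM in KO and 31.2 CPM in TiCY cells (0.13). The proteasome activator Psme2 was at 37.7 CPM in KO and 26.7 CPM in TiCY cells (0.43). The lower one was Calr, the chaperone calreticulin, at 82.6 CPM [74.3 to 91.6] in KO and 245 CPM [238 to 253] in TiCY cells (-1.51), in 48.6% of KO and 94.7% of TiCY cells. Its fellow chaperones Canx (462 CPM in KO, 512 CPM in TiCY cells, -0.15) and Pdia3 (91.8 CPM in KO, 156 CPM in TiCY cells, -0.73) lay within the fold.

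**Figure D2:**
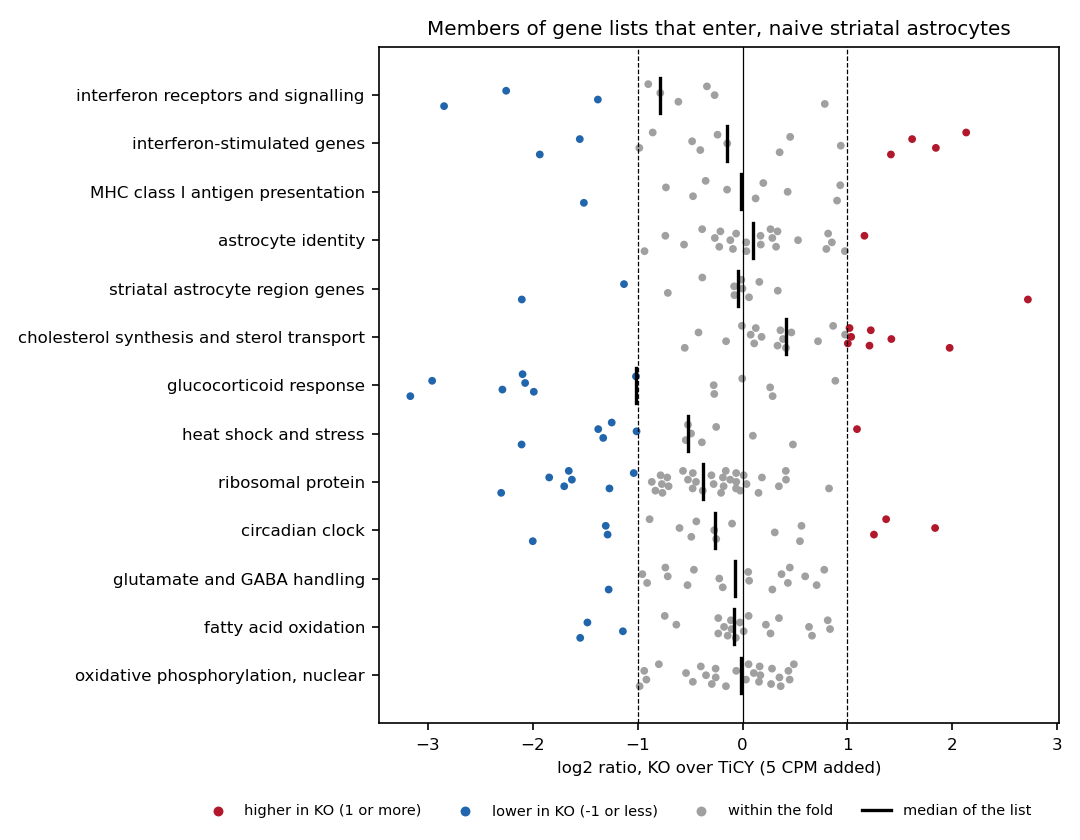
Log2 ratio of KO over TiCY (5 CPM added to each) for the members of 13 gene lists that entered, 1 point per gene, black bar at the list median, dashed lines at 1 and -1. The receptor list lies to the left (median -0.78) while interferon-stimulated genes (-0.15) and MHC class I genes (-0.01) spread around 0; cholesterol genes lie to the right (0.41) and glucocorticoid response genes furthest left (-1.02).

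Cholesterol synthesis and uptake genes leaned higher in KO cells. Of 24 listed, 23 entered, 7 were higher (30.4%, against 9.90% of all genes) and none was lower, with a median of 0.41. Msmo1, a sterol demethylation enzyme, ran from 0 to 1395 CPM per cell in KO (median 377) and from 0 to 1180 CPM in TiCY cells (median 118), overlapping but shifted upward in KO. Its sums stood at 422 CPM [403 to 442] in KO and 178 CPM [171 to 185] in TiCY cells (1.22), with 159 CPM in pL. Hmgcs1, the synthase at the entry of the pathway, stood at 201 CPM [188 to 214] in KO and 95.3 CPM [90.5 to 100] in TiCY cells (1.04), with 147 CPM in pL.

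Mvd (1.42), Hsd17b7 (1.21) and Fdft1, which makes squalene (1.00), were also past the fold, and each drew over 20% of its KO counts from 1 cell. Without the top cell of each gene, 2 members stayed past the fold, and with pL as the reference 4. Apoe, the main lipoprotein of astrocytes and the highest member, lay within the fold at 15188 CPM in KO and 12049 CPM in TiCY cells (0.33). Abca1, which exports cholesterol, had the lowest ratio, at 149 CPM in KO and 220 CPM in TiCY cells (-0.55), and the transcription factor Srebf2, which drives the pathway, stood at 228 CPM in KO and 255 CPM in TiCY cells (-0.16).

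In 1 of the 18 cholesterol genes with a RefSeq promoter, Hmgcs1, the window held a sterol regulatory element (TCACNCCAC, either strand), the element that Srebf2 binds; 1.44% of all promoters held it. It is shown in capitals with 20 bases on each side.
Hmgcs1 (chr13:119690194-119690242, plus): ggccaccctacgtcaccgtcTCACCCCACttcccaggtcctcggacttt

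Glucocorticoid response genes lay well below 0. Of 17 listed, 13 entered, 7 were lower in KO (53.8%, against 11.8% of all genes) and none was higher, with a median of -1.02 and sums of 2185 CPM [2141 to 2229] in KO and 3550 CPM [3521 to 3579] in TiCY cells. The low side was shared by pL, a letter without the knockout, at 1482 CPM, so TiCY was the high letter of the 3. With pL as the reference, 1 member was lower in KO.

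Fkbp5, a chaperone of the glucocorticoid receptor and a standard target of it, stood at 2.51 CPM [1.25 to 4.49] in KO and 62.5 CPM [58.7 to 66.5] in TiCY cells (-3.17), with 5.02 CPM in pL. No KO cell was above 42.2 CPM, while TiCY cells reached 1896 CPM. These are the highest of 35 and of 131 cells, and most cells of both groups had no Fkbp5 count. Cdkn1a, the cell cycle inhibitor p21, had counts in 1 of 35 KO cells and in 37.4% of TiCY cells (4.79 CPM in KO and 71.2 CPM in TiCY cells, -2.96), with 3.90 CPM in pL. Zbtb16, a zinc finger repressor, stood at 45.9 CPM in KO and 244 CPM in TiCY cells (-2.29), in 37.1% of KO and 94.7% of TiCY cells. Tsc22d3, the anti-inflammatory factor GILZ, stood at 26.5 CPM in KO and 130 CPM in TiCY cells (-2.10), with 48.0 CPM in pL. Hif3a, a hypoxia-inducible factor, stood at 160 CPM [148 to 172] in KO and 649 CPM [637 to 662] in TiCY cells (-1.99), with medians per cell of 7.50 CPM in KO and 572 CPM in TiCY cells, and 80.7 CPM in pL.

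Sult1a1 (-2.07) and Klf9 (-1.02) completed the 7. Members within the fold included the metallothioneins Mt1 (1185 CPM in KO and 1187 CPM in TiCY cells, 0.00) and Mt2 (184 CPM in KO and 152 CPM in TiCY cells, 0.26). The receptor itself, Nr3c1, stood at 153 CPM in KO and 147 CPM in TiCY cells (0.06). A glucocorticoid response element (ACANNNTGT) was found in 3 of the 16 listed genes with a promoter (18.75%, against 7.90% of all). Of the 12 that entered with a promoter, 6 were lower in KO, and none of those held the element. Mt1 was the 1 that held it. Hsd11b1, which in rodents turns inactive 11-dehydrocorticosterone into corticosterone, was among the 12 highest ranked genes, at 153 CPM [142 to 165] in KO and 41.4 CPM [38.3 to 44.6] in TiCY cells (1.77), with 141 CPM in pL. In KO cells 2 d after ischemia Fkbp5 stood at 81.2 CPM and Cdkn1a at 89.5 CPM, while the list summed to 2218 CPM there, near the naive KO sum; these 2 genes were chosen after their values were seen.

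Chaperones were also lower. Of 23 heat shock and stress genes 13 entered. In KO, 5 were lower (38.5%, against 11.8% of all genes) and 1 was higher (7.69%, against 9.90%). The median was -0.52, with sums of 2133 CPM in KO and 3834 CPM in TiCY cells, and 1819 CPM in pL. Hspa5, the chaperone BiP of the endoplasmic reticulum, ran from 0 to 523 CPM per cell in KO (median 75.0) and from 0 to 2638 CPM in TiCY cells (median 556). Its sums were 144 CPM [133 to 156] in KO and 636 CPM [624 to 649] in TiCY cells (-2.11), with 122 CPM in pL. Hspa8, the constitutive cytosolic Hsp70, stood at 150 CPM in KO and 383 CPM in TiCY cells (-1.33), its partner Dnaja1 at 142 CPM in KO and 344 CPM in TiCY cells (-1.25), and the stress-induced mTOR inhibitor Ddit4 at 36.5 CPM in KO and 103 CPM in TiCY cells (-1.38). Hsp90ab1 was at the edge (-1.01), and 3 alternatives took it below the fold. Hspa8 and Hsp90ab1 have processed copies in the genome that may take or lend reads. Ddit3, the factor CHOP, was the higher member, at 131 CPM in KO and 59.0 CPM in TiCY cells (1.09), with 28.3% of its KO counts in 1 cell.

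Clock genes were called on both sides. Of 19 listed 16 entered, with 3 higher (18.8%, against 9.90% of all genes) and 3 lower in KO (18.8%, against 11.8%). Dbp, an output gene that cycles strongly, stood at 120 CPM [110 to 131] in KO and 30.1 CPM [27.5 to 32.9] in TiCY cells (1.84), and Nr1d2, the repressor REV-ERB beta, at 190 CPM [177 to 203] in KO and 70.3 CPM [66.3 to 74.6] in TiCY cells (1.37). The activators Npas2 (66.4 CPM in KO and 281 CPM in TiCY cells) and Arntl, which encodes BMAL1 (60.5 CPM in KO and 157 CPM in TiCY cells, -1.30), were lower, as was Per2 (17.6 CPM in KO and 50.1 CPM in TiCY cells, -1.29). Dbp and Arntl peak at opposite times of day in most tissues. The hour at which mice were taken is not given in the sources used here, and its part in the result was not tested. Ciart, the third higher member, owed 85.0% of its KO counts to 1 cell and turned to -0.40 without it.

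All 12 genes listed as region genes of striatal astrocytes entered. Crym and Il33 were lower in KO (16.7%, against 11.8% of all genes) and Igfbp2 was higher (8.33%, against 9.90%). The list sum did not set striatal above vSVZ astrocytes. It was 8001.5 CPM in KO striatal and 8542 CPM in KO vSVZ astrocytes. In TiCY cells the sums were 9551 CPM in striatal and 9998 CPM in vSVZ astrocytes. Crym, a thyroid hormone binding protein of striatal astrocytes, had counts in 25.7% of KO cells [12.5% to 43.3%] and 67.2% of TiCY cells [58.4% to 75.1%]. It stood at 309 CPM [293 to 326] in KO and 1347 CPM [1329 to 1365] in TiCY cells (-2.10), with 802 CPM in pL and 245 CPM in KO cells 2 d after ischemia. The median per cell was 0 CPM in KO and 509 CPM in TiCY cells, and 1 KO cell with 3407 CPM held 44.3% of the KO counts. Its ratio stayed between -2.80 and -2.05 in the 10 alternatives. Il33, an alarmin of the interleukin 1 family, stood at 128 CPM [118 to 139] in KO and 287 CPM [279 to 295] in TiCY cells (-1.13), with 158 CPM in pL. Igfbp2, which binds insulin-like growth factors, stood at 65.3 CPM in KO and 5.65 CPM in TiCY cells (2.72), with 46.9% of its KO counts in 1 of 8 cells, and 40.7 CPM in pL.

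**Figure D3:**
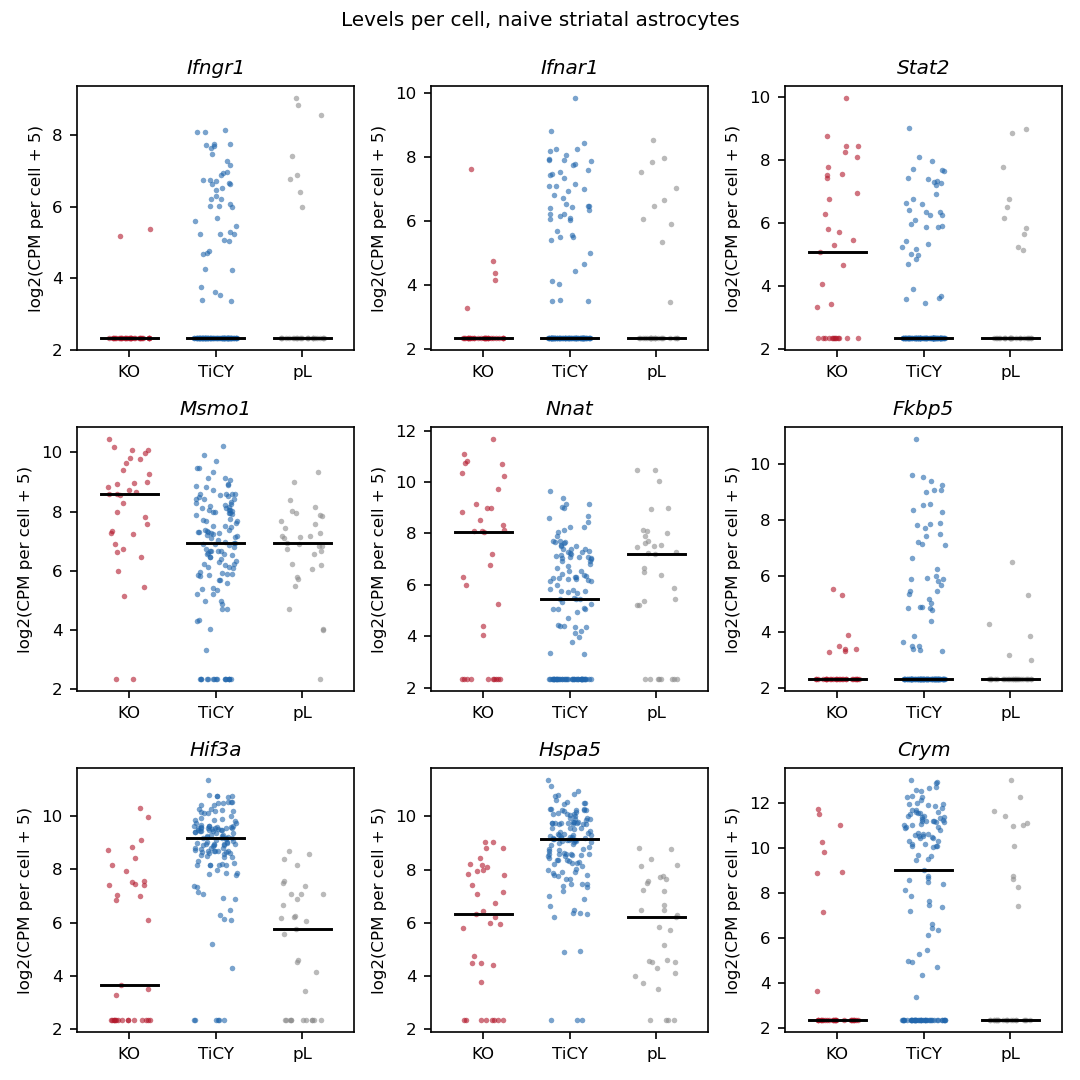
Level per cell as log2(CPM + 5) for 9 genes in naive striatal astrocytes of KO (35 cells), TiCY (131 cells) and pL (33 cells); each point is 1 cell, jittered sideways, and the bar is the median. Cells of Ifngr1 with counts number 2 in KO, and pL lies near KO for Hif3a and Hspa5.

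Ribosomal protein genes lay low. All 39 entered, 7 were lower in KO (17.9%, against 11.8%), none was higher, 31 of 39 had a ratio below 0, and the median was -0.38; the sums were 4137 CPM in KO and 5695 CPM in TiCY cells, and 4434 CPM in pL. The lowest ratio was that of Rpl32, at 39.95 CPM in KO and 217 CPM in TiCY cells (-2.30), followed by Rps4x (-1.84), Rps19 (-1.70) and Rpl7 (-1.66). These genes have many processed pseudogenes, so their counts are uncertain. Of 26 nuclear genes of oxidative phosphorylation and 20 of glycolysis that entered, none was past the fold (medians -0.01 and 0.06). Among 22 fatty acid oxidation genes 3 were lower in KO, Decr1 (-1.55), Etfdh (-1.48) and Hadh (-1.14), a share of 13.6% near the 11.8% of all genes, and the list summed to 5371 CPM in KO and 5353 CPM in TiCY cells. Of the 11 mitochondrially encoded genes that entered, 2 were lower (18.2%, against 11.8% of all genes) and 1 was higher (9.09%, against 9.90%). The lower ones were mt-Nd6 and mt-Rnr2, the large ribosomal RNA (72.4 CPM in KO and 220 CPM in TiCY cells, with 3162 CPM in pL). The higher one was mt-Co1, a subunit of cytochrome oxidase (720 CPM in KO and 323 CPM in TiCY cells, 1.14). It did not meet the cell conditions in KO. All 15 listed summed to 1896 CPM in KO and 1760 CPM in TiCY cells, but to 11850 CPM in pL.

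Few transport genes were past the fold. Glutamate and GABA genes summed to 33715 CPM [33543 to 33887] in KO and 37380 CPM [37285 to 37474] in TiCY cells. Of the 18 that entered, 1 was lower (5.56%, against 11.8% of all genes), the GABA transaminase Abat, at 77.4 CPM in KO and 195 CPM in TiCY cells (-1.28). Of 17 channel genes, 1 was higher (5.88%, against 9.90% of all genes) and none was lower. The higher one did not meet the cell conditions. Of 4 reactive astrocyte genes that entered, Fkbp5 and Vim were lower (50%, against 11.8% of all genes). Vim, an intermediate filament protein, stood at 2.28 CPM in KO and 31.4 CPM in TiCY cells (-2.32), with 6.88 CPM in pL. Of 4 immediate early genes Fos was lower (25%, against 11.8% of all genes). It stood at 7.99 CPM in KO and 45.2 CPM in TiCY cells, with 45.9% of its TiCY counts in 1 cell. Vcam1, an adhesion molecule, stood at 122 CPM in KO and 263 CPM in TiCY cells (-1.08), and Sparc, a matrix protein, at 79.4 CPM in KO and 181 CPM in TiCY cells (-1.14), with 52.3% of its KO counts in 1 cell. Of the other lists, called members were Birc3 (1.79) among 7 NF-kB genes beside Vcam1, and Smad4 (1.61) among 13 TGF beta genes. Thbs4 (2.43) and Col4a2 (-1.03) were called beside Sparc among 17 matrix genes, and Wdfy1 (-1.07) among 4 genes known to vary between strains. Birc3, Smad4, Thbs4 and Col4a2 did not meet the cell conditions. Shares higher were 14.3% (NF-kB), 7.69% (TGF beta) and 5.88% (matrix), against 9.90% of all genes. Shares lower were 14.3% (NF-kB), 11.8% (matrix) and 25% (strain), against 11.8% of all genes. Mki67 was the 1 proliferation gene to enter, with 1 count in KO cells and 22.99 CPM in TiCY cells. That is a KO to TiCY ratio of 0.00993 [0.000251 to 0.0557], but Mki67 did not meet the cell conditions in TiCY cells. None of the 11 Notch genes that entered was past the fold; Maml2, a coactivator, stood at 604 CPM in KO and 393 CPM in TiCY cells, and Id2 at 282 CPM in KO and 497 CPM in TiCY cells.

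Markers of other cell types moved with the letters in part. Oligodendrocyte genes summed to 202 CPM [188 to 215] in KO and 81.3 CPM [76.9 to 85.8] in TiCY cells. Per cell they ran from 0 to 965 CPM in KO (median 79.3) and 0 to 497 CPM in TiCY cells (median 46.7). Of 5 that entered, 3 were higher in KO (60%, against 9.90% of all genes) and none was lower. None of the 3 met the cell conditions. Ugt8a and Mbp were among them, in 3 and 4 KO cells. Mog, Cldn11 and Sox10 were at 0 in both groups. Microglia and macrophage genes summed to 17.1 CPM [13.5 to 21.5] in KO and 157 CPM [151 to 163] in TiCY cells, with 0 to 407 CPM per cell in KO (median 0) and 0 to 918 CPM in TiCY cells (median 62.6); 11 of 16 members were at 0 in KO, among them Csf1r, Cx3cr1 and C1qb, and Tmem119, C1qa and C1qc were at 0 in both. Neuron genes summed to 150 CPM in KO and 196 CPM in TiCY cells. Of 4 that entered, Gria1 was higher in KO (25%, against 9.90% of all genes). It drew 75.7% of its KO and 98.1% of its TiCY counts from 1 cell each. Pde10a was lower (25%, against 11.8% of all genes). Neuroblast genes made 801 CPM in KO and 795 CPM in TiCY cells, mostly Ncam1 (672 CPM in KO and 651 CPM in TiCY cells), with Dlx5, Tubb3 and Sp8 at 0 in both. Precursor, endothelial, pericyte and ependymal lists had no member past the fold, and no fibroblast gene entered. The part of these transcripts in the other results was not tested.

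The 12 highest ranked genes met the cell conditions in KO. Nnat, neuronatin, an imprinted membrane protein of the endoplasmic reticulum, led: KO cells ran from 0 to 3266 CPM (median 262) and TiCY cells from 0 to 798 CPM (median 38.9). Its sums were 548 CPM [526 to 571] in KO and 106 CPM [101 to 111] in TiCY cells (2.32), with 201 CPM in pL. It lies in an intron of Blcap on the other strand, and the counting's use of strand is not given. Tagln3, an actin-associated protein, stood at 368 CPM [351 to 387] in KO and 109 CPM [104 to 114] in TiCY cells (1.72), in 94.3% of KO and 78.6% of TiCY cells, with 312 CPM in pL. Mid1ip1, which activates acetyl-CoA carboxylase in fatty acid synthesis, stood at 368 CPM in KO and 110 CPM in TiCY cells (1.70), with 267 CPM in pL. Anxa5, the phosphatidylserine-binding annexin, stood at 253 CPM in KO and 73.9 CPM in TiCY cells (1.71), with 196 CPM in pL.

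Other high ones were less widely seen. Elovl1, which elongates very long chain fatty acids, stood at 69.2 CPM in KO and 13.7 CPM in TiCY cells (1.99). Zfp36l2, which destabilises AU-rich mRNAs, stood at 103 CPM in KO and 26.2 CPM in TiCY cells (1.79), with 242 CPM in pL. Pamr1 (107 CPM in KO and 27.2 CPM in TiCY cells), Gpalpp1 (80.4 in KO and 12.9 in TiCY cells) and the chromatin remodelling subunit Actl6a (80.4 in KO and 21.8 in TiCY cells) were higher too, in 28.6% to 54.3% of KO cells.

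The 12 lowest ranked genes met the same conditions in TiCY cells. S100a8, S100a9, Lyz2, Mettl1 and Nelfa had no count in 35 KO cells, which allows up to 0.685 CPM at 3 counts. S100a8 and S100a9, the calprotectin subunits that neutrophils carry in bulk, stood at 117 and 69.3 CPM in TiCY cells, so they were at least 170-fold and at least 101-fold lower in KO. Lyz2, lysozyme of macrophages and neutrophils, stood at 102 CPM in TiCY cells, in 51.9% of them, and was at least 148-fold lower in KO. All 3 also had 0 counts in pL and in KO cells 2 d after ischemia, so they set TiCY apart from the other letters and not KO alone.

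Mettl1, which methylates transfer RNA, stood at 64.9 CPM in TiCY cells and was at least 94.8-fold lower in KO, and Nelfa, a subunit of the negative elongation factor, stood at 42.1 CPM in TiCY cells and was at least 61.5-fold lower in KO; pL had 32.0 and 64.0 CPM. Adamts20, a secreted protease, stood at 1.37 CPM [0.50 to 2.98] in KO and 137 CPM [131 to 142] in TiCY cells (-4.47), in 8.57% of KO and 74.8% of TiCY cells, with 6.32 CPM in pL. Pde10a, the phosphodiesterase of striatal projection neurons, had counts in 1 KO cell (2.05 CPM, against 106 CPM in TiCY cells, -3.98), with 5.02 CPM in pL. Tgs1, which caps small nuclear RNAs (1.598 CPM in KO and 77.5 CPM in TiCY cells), Txlna (2.51 in KO and 74.4 in TiCY cells) and the kinase Stk38l (1.598 in KO and 60.6 in TiCY cells) were likewise low in KO. Dynlt1b, a dynein light chain with near-identical copies beside it, stood at 1.83 CPM in KO and 75.2 CPM in TiCY cells, with 132 CPM in pL.

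The ratios of the same letters in other cell types are given side by side. Each comparison uses its own cells, but mice may be shared. In vSVZ astrocytes (79 KO and 114 TiCY cells) 6.30% of genes were higher and 8.92% lower in KO, and in cells labelled qNSC2 (31 KO and 39 TiCY cells) 15.9% were higher and 16.7% lower. Ifngr1 stood at 0 CPM in KO and 27.7 CPM in TiCY vSVZ astrocytes, and at 0.406 CPM in KO and 10.7 CPM in TiCY qNSC2. Nnat had ratios of 1.90 in vSVZ astrocytes and 2.09 in qNSC2, Dbp 1.65 and 1.92, Fkbp5 -3.18 and -3.44, Hif3a -2.72 and -2.15, and Hspa5 -2.53 and -3.43. Glucocorticoid response genes had medians of -1.47 in vSVZ astrocytes (7 of 13 lower) and -1.12 in qNSC2 (6 of 12 lower), cholesterol genes 0.48 (5 of 23 higher) and 0.15 (4 of 22 higher), and interferon-stimulated genes -0.09 (2 higher and 1 lower of 13) and -0.01 (4 higher and 6 lower of 19). Ratios past the fold in striatal astrocytes lay elsewhere for Stat2 (0.69 in vSVZ astrocytes and 0.22 in qNSC2), Crym (-0.15 and 1.41), Nelfa (0.05 and 0.31) and Actl6a (-0.25 and 0.01), values for vSVZ astrocytes before qNSC2; the differences between cell types were not tested.

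**Figure D4:**
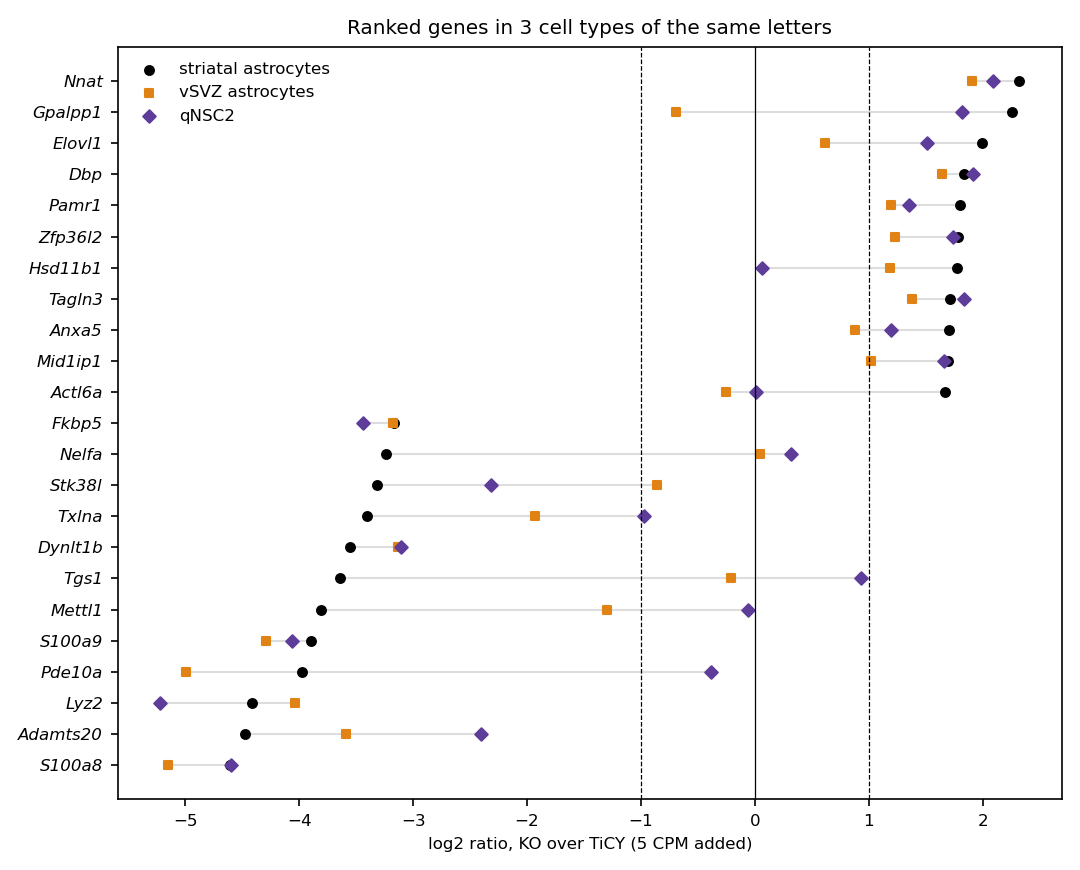
Log2 ratio of KO over TiCY (5 CPM added to each) of ranked genes in striatal astrocytes (circles), vSVZ astrocytes (squares) and cells labelled qNSC2 (diamonds), letters pJ and pM throughout; for genes with 0 counts in KO the ratio depends on the 5 CPM added. Nnat, Dbp, S100a8, S100a9, Lyz2, Fkbp5 and Dynlt1b are among those past the fold in all 3 types, and Nelfa, Tgs1 and Actl6a are past it in striatal astrocytes and in neither other type.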

How the data were processed

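Per the labels, RNA of single cells sorted on plates was made into Smart-seq3 libraries; per the submitters' processing notes, the authors used STAR and featureCounts on GRCm38 (mm10). The sources used here give no version, annotation or strand setting. The deposited matrix holds whole-number counts, 1 per gene and cell and not normalized; whether they count reads or molecules is not stated. Rows of the main table were matched to labelled cells by name, and 603 rows without a label were not used. No cell was filtered, no doublet caller was run on these sorted cells, and no pair of the 166 cells had identical counts.

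Of 35606 gene identifiers, 35455 had a symbol in GENCODE M21; where a symbol is shared, the identifier with more counts was used. Counts were summed per letter, scaled to CPM and compared as described, with Python 3.11.15, numpy 2.4.6, pandas 2.3.3 and scipy 1.17.1. Sums held 4380326 counts in KO and 16093534 in TiCY cells. Factors for 2 alternatives came from edgeR 4.0.16 and DESeq2 1.42.0. The call rule was checked on simulated sums with counting error only. They held no spread between cells, mice or letters, so the check does not bear on such spread. Members and lists were chosen with earlier results of these data known. Named genes are every receptor and signalling gene, the interferon-stimulated and MHC class I genes that entered, the 12 highest and 12 lowest ratios under the cell conditions given, and the called members of the other lists (at most 4, or the 2 highest where none was called); members named beyond this were chosen after their values were seen. Of 93 listed or named genes past the fold, 10 overlap a counted gene on the same strand and 38 on either strand. Some genes that the rule names are not reported here.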

Additional observations from a re-analysis of the deposited data

Results flagged for a closer look

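Ifngr2 and Crym moved in opposite directions past the fold in striatal astrocytes and in cells labelled qNSC2 of the same letters; with 1 letter per genotype this difference was not tested. Ifngr2 had a log2 ratio of 1.37 in qNSC2 (20.7 CPM in KO and 4.94 CPM in TiCY cells), against -1.38 in striatal astrocytes. Crym had 1.41 in qNSC2 (1374 CPM in KO and 515 CPM in TiCY cells), against -2.10 in striatal astrocytes and -0.15 in vSVZ astrocytes (1123 CPM in KO and 1244 CPM in TiCY cells).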

How the results depend on the processing

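All 10 alternatives were run. With a pseudocount of 20 CPM, 342 genes were higher and 448 lower in KO, with a floor of 50 CPM 394 and 451, with no floor 1337 and 1981, and without the top cell of each gene 282 and 1675, the last with a median over all genes of -0.31. In the same order, interferon-stimulated genes lower in KO numbered 1, 0, 11 and 4, against 2, and those higher numbered 1 with the floor of 50 CPM and 2 without the top cell, against 4. Receptor and signalling genes lower in KO numbered 1 with that floor and 6 without the top cell, against 3, and cholesterol genes higher numbered 3 with the pseudocount of 20 CPM and 2 without the top cell, against 7. With pL as the reference, chosen after seeing the data, 1124 genes were higher and 1266 lower, interferon-stimulated genes lower in KO numbered 5, cholesterol genes higher 4 and glucocorticoid genes lower 1, against 7. Rsad2 turned to -0.16 and Ciart to -0.40 without the top cell. Of 93 listed or named genes past the fold, 51 stayed so in every alternative, 18 did not without the top cell and 22 did not with the pseudocount of 20 CPM. TMM and median-of-ratios factors moved no count over 1.5 times. Except for those that leave out cells or genes by construction, the cause was not tested. No paired analysis was possible because each genotype is 1 letter. A count of 0 in KO allows 0.685 CPM, against 0.186 CPM in TiCY cells.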

Other observations

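Blood transcripts, chosen after their values were seen, went with the TiCY letter. Hbb-bs, adult beta globin, had 0 counts in KO and 21.0 CPM in TiCY cells, in 28.2% of them, and Hba-a1, alpha globin, and Camp, the neutrophil cathelicidin, had 0 counts in KO and 4.47 and 5.53 CPM in TiCY cells. All 3 had 0 counts in pL and in KO cells 2 d after ischemia, as did S100a8, S100a9 and Lyz2. The sort stain included antibodies to CD45 and Ter119, surface proteins of leukocytes and red cells.

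Beside Dynlt1b on chromosome 17, the pseudogene Tmem181b-ps, chosen after its values were seen, stood at 9.82 CPM [7.10 to 13.2] in KO and 333 CPM [325 to 343] in TiCY striatal astrocytes, 4.65 CPM in KO and 247 CPM in TiCY vSVZ astrocytes, and 0.203 CPM in KO and 153 CPM in TiCY cells labelled qNSC2. It stood at 242 CPM in pL and at 7.99 CPM in KO cells 2 d after ischemia; the 4 summed groups of letter pJ were all under 10 CPM. The copies Dynlt1a, Dynlt1c and Dynlt1f stood at 1.83, 5.02 and 30.6 CPM in KO and 11.2, 9.82 and 18.6 CPM in TiCY striatal astrocytes.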
